A study of Mus musculus with 6 samples.

Results

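The respiratory chain genes were taken as all genes of the count table whose symbol starts with mt-Nd, mt-Co, mt-Atp or mt-Cytb (mitochondrially encoded) or with Nduf followed by a, b, c, s or v, Uqcr, Cox4 to Cox8 or Atp5 (nuclear encoded), pseudogenes left out. This rule, which uses names only, gave 101 of the 22287 genes listed, 13 mitochondrially encoded and 88 nuclear encoded. Another 9 genes matched by name and were left out as pseudogenes. Ndufb1-ps was kept, since the table types it as a bidirectional promoter lncRNA and not as a pseudogene.

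The RNA came from the apical end of the lower first molar of C57BL/6 pups, the region where the tooth root grows, at postnatal day 7.5. All pups had been given tamoxifen, 20 mg/ml in corn oil, at postnatal day 3.5 and at 1.5 mg per 10 g of body weight. The control group was Arid1a fl/fl, with loxP-flanked alleles and no recombinase (3 libraries, replicates 2, 3 and 5). The mutant group was Gli1-CreER;Arid1a fl/fl (3 libraries, replicates 3, 4 and 5), in which tamoxifen activates a Cre recombinase made by Gli1-expressing cells, that is, cells receiving a Hedgehog signal. Both groups therefore carry the floxed alleles and received tamoxifen, while CreER is present in the mutants alone, so effects of CreER and of the loss of Arid1a cannot be told apart. Cells that did not express Gli1 when tamoxifen acted, and do not descend from cells that did, keep Arid1a in this bulk tissue. The labels do not say whether a library is 1 animal or a pool, nor the sex of the pups, and p-values then measure the spread between these libraries, which may in part be technical. Arid1a is a subunit of BAF, a complex that moves nucleosomes.

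The respiratory chain is the set of inner-membrane complexes that pass electrons from nutrients to oxygen (complexes I, III and IV, with complex II as a second entry point) and use the resulting proton gradient to make ATP (complex V, the ATP synthase). Its subunits come from separate genomes. The core membrane subunits are encoded by mitochondrial DNA, which is transcribed into long polycistronic RNAs that are cut into mRNAs. All other subunits are encoded in the nucleus, made in the cytosol and imported. Nuclear transcription factors such as NRF1, GABP (an ETS factor) and YY1 are known to bind many promoters of the nuclear subunits.

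Sequencing gave 20453247 to 24255352 estimated gene counts per library. Values are CPM, each gene's count relative to the library total, on library sizes scaled by TMM, and 17305 genes passed the filter on low counts. Of the 101 respiratory chain genes, 100 passed it, and Cox8b did not. Arid1a fell from 210, 202 and 204 CPM in controls to 120, 134 and 130 CPM in mutants (log2 fold change -0.68 with an SE of 0.07, adjusted p = 0.0129 by edgeR's quasi-likelihood test). Of the markers of the labelled tissue, all 6 odontoblast genes were in the table and summed to 48915 to 50431 CPM in controls and 42299 to 52036 CPM in mutants. Summed markers of some other cells did not overlap between the groups, while those of Schwann cells, osteoclasts, and pericytes and smooth muscle did. The 5 endothelial genes summed to 214 to 251 CPM in controls and 254 to 265 CPM in mutants. The 8 dental epithelium genes summed to 178736 to 277842 CPM in controls and 68104 to 113355 CPM in mutants, nearly all of it from the enamel matrix genes Amelx, Ambn and Enam. The other 5 epithelial genes summed to 1817, 2258 and 2265 CPM in controls and to 2438, 1959 and 1378 CPM in mutants, so that these groups overlapped, with mutant replicate 3 the highest. The 6 macrophage genes summed to 200 to 242 against 272 to 351 CPM, and the 11 erythroid genes found of 12 listed to 1424 to 1951 against 2368 to 5515 CPM, with Hemgn at 0 in at least 1 library. Their part in the results below was not tested, apart from the erythroid level as a term in the fit. A gene's level in bulk RNA falls both when fewer cells of a type are present and when each holds less of the RNA, and these cannot be told apart here.

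The sequence of the mitochondrial genes bears on how their counts can be read. The mouse nuclear genome holds an insertion of mitochondrial DNA on chromosome 1, and GENCODE M21 (mm10) lists separate pseudogenes there, on the minus strand between positions 24611535 and 24616197, each a copy of 1 mitochondrial gene. The copies of mt-Atp6, mt-Co2, mt-Co3, mt-Nd4 and mt-Nd4l (Gm10925, Gm28661, Gm28437, Gm28439 and Gm10222) matched their originals with 0 mismatches over 678, 681, 783, 876 and 294 aligned bases. The first 60 bases of mt-Co3 are shown because they are also the first 60 of Gm28437 (chr1:24613189-24613971), so that no read from them can tell the genes apart. The copy of mt-Nd3, Gm28438 (chr1:24612775-24613119), had 1 mismatch, T3C, counted from 1 at the 5′ end of the transcript, which the capitals mark. The copy of mt-Co1, Gm29216 (chr1:24615706-24616197), covers 492 bases and had 6 mismatches, all near its start, and the capitals again mark them.
mt-Co3 and Gm28437: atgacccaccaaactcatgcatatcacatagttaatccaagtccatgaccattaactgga
mt-Nd3: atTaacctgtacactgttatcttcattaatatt
Gm28438: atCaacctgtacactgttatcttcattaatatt
mt-Co1, bases 1054 to 1086: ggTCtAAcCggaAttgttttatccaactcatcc
Gm29216: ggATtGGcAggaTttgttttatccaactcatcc

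The authors' expectation-maximisation counting shares a read among the genes it fits, and a large part of the mitochondrial counts was listed under these copies. Of the counts summed over the gene and its copies, the copies held 50.01% for mt-Co3, 53.1% for mt-Atp6, 55.5% for mt-Co2, 60.7% for mt-Nd3, 31.3% for mt-Nd4l and 10.3% for mt-Nd4. For mt-Co1, its copies held 0.0184%. The listed levels of the first 6 genes are therefore uncertain, and each was also computed with its copies added. Overlapping genes are a further limit: mt-Atp8 and mt-Atp6 share 43 bases of the same strand (chrM:7927-7969), 21.1% of mt-Atp8. They are shown with the start codon of mt-Atp6 and the stop codon of mt-Atp8 in capitals.
mt-Atp8 and mt-Atp6: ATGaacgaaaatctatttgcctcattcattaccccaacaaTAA

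Pseudogenes elsewhere in the genome also share sequence with nuclear members. Whether the counts listed under such a copy came from the member or from the copy was not tested, and several copies share only a small part of the member's sequence. A stretch of 75 bases, the read length, recurred in a pseudogene of the table for 31 members, 8 mitochondrial and 23 nuclear. Adding the 31 copies that held at least 5% of a member's stretches changed the level of Atp5g2, 1 of 3 genes for the membrane ring subunit c of ATP synthase, the most: its copies held 98.6% of the summed counts. Atp5g2 alone was listed at 1.07, 1.45 and 1.14 CPM in controls and 1.08, 0.911 and 2.37 CPM in mutants. With its copies it stood at 89.5, 95.7 and 94.4 CPM in controls and 106, 90.3 and 97.3 CPM in mutants. The copies held 82.7% for Ndufb4, 66.2% for Ndufs5, 64.0% for Ndufa12, 60.03% for Atp5g1, 56.2% for Atp5l, 55.2% for Uqcrb and 52.0% for Atp5h. No respiratory chain gene passed the test with copies added, as was the case without them.

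**Figure D1:**
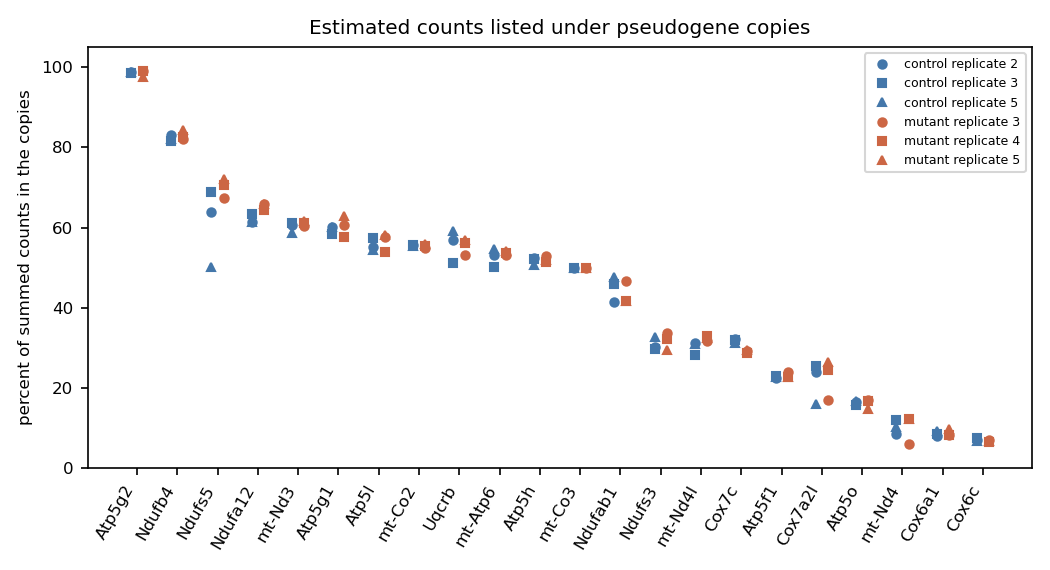
Percent of the summed estimated counts of a gene and its pseudogene copies that was listed under the copies (y axis), for members where this exceeded 5% (x axis), in each library. Points are single libraries, blue for controls and orange for mutants. Atp5g2 sits near 98.6%, and mt-Co3 at 50.01%.

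None of the 100 tested respiratory chain genes differed between mutants and controls at an adjusted p under 0.05 by edgeR's quasi-likelihood test: 0 of 13 mitochondrial and 0 of 87 nuclear. The background was 1.86% of all genes tested (322 of 17305), 0.659% higher and 1.2% lower in mutants. At an unadjusted p under 0.05 there was 1 member, Ndufa1, where 15.0% of all genes reached this. At an adjusted p under 0.1 none was called, where 3.88% of all genes were. DESeq2 called 1 member, again Ndufa1, where it called 4.86% of all genes. Libraries of the groups did not overlap for 3 members (Ndufaf2 and Ndufaf5 higher, Ndufa1 lower in mutants), where 21.3% of all genes showed this. A missed threshold does not show equal levels, so intervals from the fit with TMM scaling are given. For 92 of the 100 members the 95% interval of the fold change lay within 1.5-fold either way. These were all 13 mitochondrial and 79 of 87 nuclear members, against 57.5% of all genes. The intervals are not adjusted over genes, and they do not cover the choice of scaling or counts listed under pseudogene copies.

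**Figure D2:**
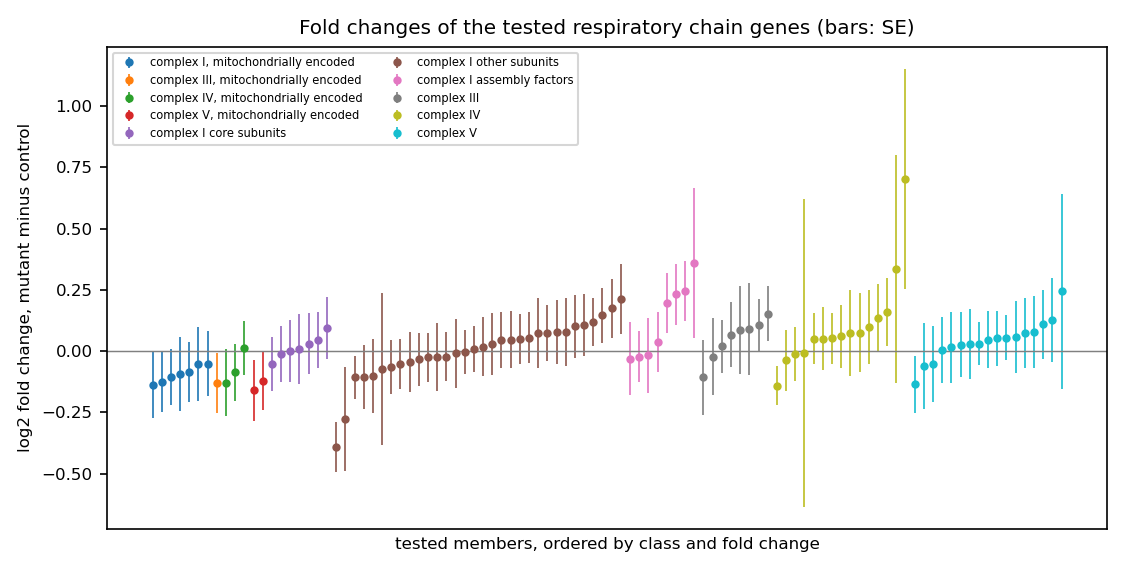
Log2 fold change, mutant minus control (y axis), of the 100 tested members, ordered by class and by fold change within a class (x axis); points are edgeR estimates and bars are SE. The mitochondrially encoded genes run from -0.16 to 0.01, and Ndufa1 at -0.39 and Cox6b2 at 0.70 are the lowest and highest members.

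The mitochondrially encoded genes were among the most abundant of the chain. Their levels are listed per gene, and mt-Atp8 with mt-Atp6 and mt-Nd4l with mt-Nd4 overlap on the same strand. The levels within such a pair are therefore not independent, and the 13 genes are not 13 separate mRNAs. Per kilobase of transcript, mt-Atp8, a small subunit of ATP synthase, was listed highest in controls at 12861 CPM per kb, ahead of mt-Co1, the catalytic subunit of complex IV, at 7936 and mt-Cytb, the cytochrome b of complex III, at 5033 CPM per kb. The lowest was mt-Nd3 of complex I at 622 CPM per kb. With copies added, mt-Atp6 (7046), mt-Co2 (6725) and mt-Co3 (5698 CPM per kb) moved past mt-Cytb, and mt-Nd3 stood at 1562 CPM per kb, still the lowest. The highest nuclear gene per length was Atp5b, the catalytic beta subunit of ATP synthase, at 311 CPM per kb in controls, followed by Cox4i1, the largest nuclear subunit of complex IV, at 228 CPM per kb.

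Complex I holds 7 mitochondrial subunits, the membrane arm genes mt-Nd1 to mt-Nd6 and mt-Nd4l, and all 7 had a log2 fold change below 0 with TMM scaling, from -0.14 (mt-Nd4l) to -0.05 (mt-Nd3). mt-Nd1 stood at 3057, 3794 and 3788 CPM in controls and at 3479, 3517 and 3041 CPM in mutants. mt-Nd5 stood at 3390, 4466 and 4783 CPM in controls and at 4045, 4292 and 3514 CPM in mutants. The groups overlapped for both, with control replicate 2 and mutant replicate 5 the low libraries. mt-Nd6, the only member on the opposite strand of the mitochondrial genome, was listed at 971, 1185 and 1335 CPM in controls and 1267, 1152 and 946 CPM in mutants. Its log2 fold change was -0.05 (SE 0.15).

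In complex III, mt-Cytb was at 4970, 6258 and 6045 CPM in controls and at 5411, 5390 and 4984 CPM in mutants (log2 fold change -0.13 with an SE of 0.12, adjusted p = 0.688). In complex IV, mt-Co1 was at 10358, 13113 and 13310 CPM in controls and at 11473, 11893 and 10266 CPM in mutants (log2 fold change -0.13 with an SE of 0.14, adjusted p = 0.731). mt-Co3 was the only mitochondrial member above 0, at 0.01 (SE 0.11), and mt-Co2 was at -0.09. In complex V, mt-Atp6 had the smallest p of the 13 and stood at 1963, 2588 and 2276 CPM in controls and 2063, 2166 and 1881 CPM in mutants (log2 fold change -0.16 with an SE of 0.12, adjusted p = 0.617). mt-Atp8 stood at 2267, 2845 and 2759 CPM in controls and 2300, 2636 and 2302 CPM in mutants. The ranges of the groups overlapped for all 13.

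**Figure D3:**
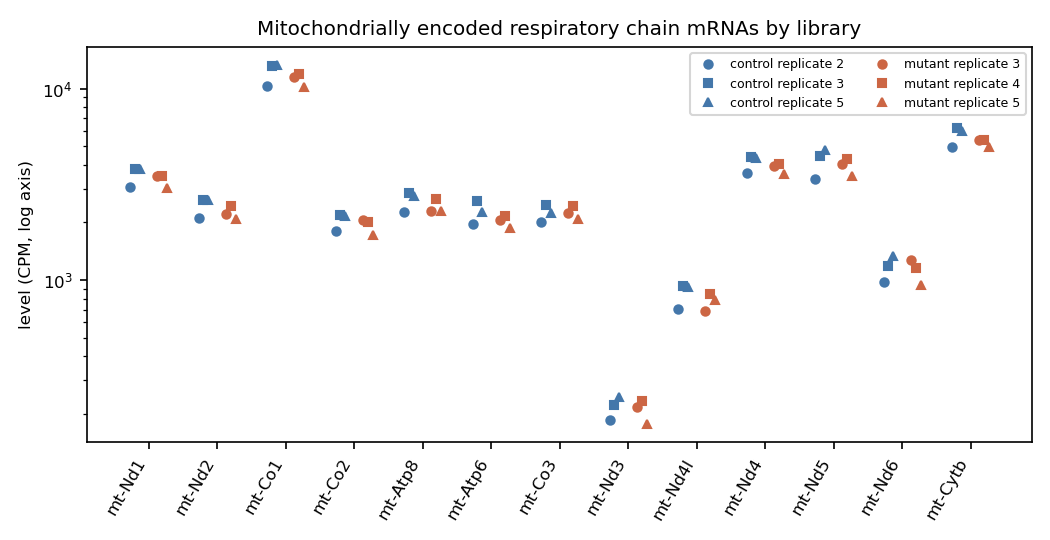
Level of the 13 mitochondrially encoded genes in CPM (y axis, log scale), ordered by position in the mitochondrial genome. Points are single libraries, blue for controls and orange for mutants. The groups overlap for every gene, and control replicate 2 and mutant replicate 5 are the low libraries of most.

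The median log2 fold change was -0.11 over the 13 mitochondrial members, 0.05 over the 87 nuclear members and 0.01 over all genes tested; the mitochondrial value turned to 0.10 with library totals alone, where the nuclear median was 0.25 and that of all genes 0.21. Relative to all genes the mitochondrial median was lower by about the same amount under both scalings, -0.12 and -0.11. With TMM, 12 of 13 mitochondrial members had a negative and 58 of 87 nuclear members a positive fold change. The difference of the medians, mitochondrial minus nuclear, was -0.15, and 1 library decided it: without mutant replicate 3 it was -0.02, with a nuclear median of -0.10 and 12 of 87 nuclear members positive. No test over the members was run, since they were chosen with earlier results known.

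Mutant replicate 3 stood apart for the nuclear members. It was the highest of the 6 libraries for 75 of 87 nuclear members, where it was the highest for 19.2% of all genes tested, and for 0 of 13 mitochondrial members. Its level was a median of 1.22 times the median of the other 5 libraries over the nuclear members and 0.977 times over the mitochondrial ones. The mean log2(CPM + 1) of the nuclear members differed from the control mean by -0.09, 0.05 and 0.04 in control replicates 2, 3 and 5 and by 0.26, -0.04 and -0.14 in mutant replicates 3, 4 and 5. For the mitochondrial members these values were -0.21, 0.11 and 0.11 in controls and -0.07, 0.00 and -0.22 in mutants. Both sets were thus lowest in replicate 2 among controls and in replicate 5 among mutants. Mutant replicates 3 and 4 were ordered differently in the sets.

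This higher level was seen across the complexes. Mutant replicate 3 was the highest library for all 7 core subunits of complex I, 27 of 32 other complex I subunits, 5 of 8 assembly factors, 8 of 8 subunits of complex III, 13 of 15 of complex IV and 15 of 17 of complex V. A list of 7 maturation-stage ameloblast genes, all in the table and chosen after their values were seen, was also highest in this library. The 7 genes, expressed late in enamel formation, summed to 1441 to 4205 CPM in controls and to 8185, 3150 and 1646 CPM in mutant replicates 3, 4 and 5, and none was at 0. Odam, an enamel maturation protein, stood at 470, 2126 and 785 CPM in controls and at 4355, 1456 and 643 CPM in mutants. The sample title of mutant replicate 3 also has a leading number that the other titles lack, whose meaning the labels do not give. The part of these cells or of this library's handling in the result was not tested.

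**Figure D4:**
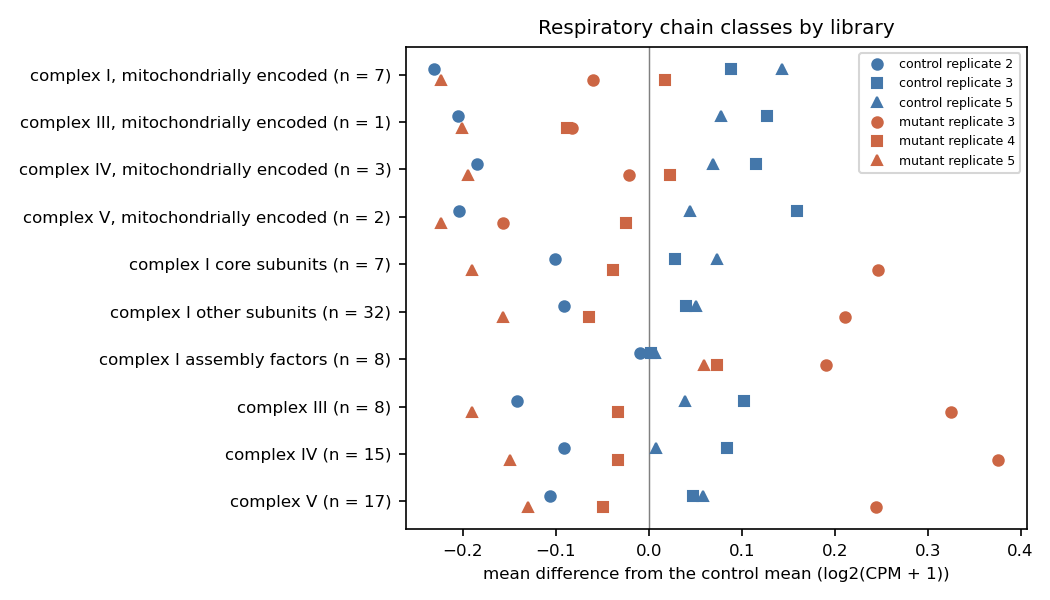
Mean difference from the control mean in log2(CPM + 1) (x axis) for each class of respiratory chain genes (y axis, with the number of tested genes), 1 point per library. Mutant replicate 3 (orange circle) is the rightmost library in the 6 nuclear classes and in none of the 4 mitochondrial classes.

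Among the nuclear complex I genes, the 7 core subunits, which carry the flavin and iron-sulfur clusters, had log2 fold changes from -0.05 to 0.09. Ndufv2 was at 51.5, 55.0 and 59.6 CPM in controls and 68.5, 52.4 and 46.1 CPM in mutants. Ndufs7 and Ndufs8 had the smallest p among the core subunits, with log2 fold changes of 0.09 and -0.05. For Ndufv2 the mutant libraries spanned the controls, replicate 3 above and replicate 5 below.

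Ndufa1, an X-linked accessory subunit of complex I (chrX:37187588-37191163, minus strand, mm10), had the smallest p of all members. It stood at 47.3, 49.6 and 40.4 CPM in controls and 36.7, 36.3 and 31.7 CPM in mutants. All 3 mutant libraries were below all 3 controls, mutant replicate 3 included, unlike most other subunits. Its log2 fold change was -0.39 (SE 0.10, 95% interval -0.63 to -0.16) with an adjusted p of 0.111 by edgeR's quasi-likelihood test, and the adjusted p ranged from 0.0431 (DESeq2) to 0.363 over the alternatives. The other X-linked members, Ndufb11 and Cox7b, had log2 fold changes of -0.05 and 0.14.

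The accessory subunits, Ndufa1 included, had a median log2 fold change of 0.01 over the 32, and none was called. Ndufa4, since reassigned to complex IV by biochemical work, was at 71.2, 85.1 and 80.2 CPM in controls and 90.1, 80.7 and 73.8 CPM in mutants. Ndufa6 was at 59.2, 60.4 and 60.8 CPM in controls and 68.1, 56.8 and 52.7 CPM in mutants. Ndufa4l2, a related gene linked to low oxygen, was at 4.62, 8.71 and 8.93 CPM in controls and 9.74, 5.08 and 6.28 CPM in mutants. Ndufb1-ps had a log2 fold change of 0.21 (adjusted p = 0.556), and its reads overlap those of Cpsf2. The 8 assembly factors, which build complex I and are not part of it, had a median of 0.12. Of these, Ndufaf5 stood at 6.86, 7.72 and 6.48 CPM in controls and 8.62, 8.33 and 8.03 CPM in mutants (log2 fold change 0.25 with an SE of 0.12, adjusted p = 0.407). Ndufaf2 stood at 6.86, 6.27 and 7.56 CPM in controls and 7.84, 8.50 and 7.95 CPM in mutants (log2 fold change 0.23 with an SE of 0.12, adjusted p = 0.443). All mutant libraries were above all controls for both, and an antisense gene overlaps Ndufaf2, whose reads cannot be told apart without strand. Ndufaf8 had a log2 fold change of -0.03.

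In complex III, Uqcrh, the hinge protein that binds cytochrome c1, stood at 75.8, 88.0 and 83.9 CPM in controls and 103, 82.6 and 80.9 CPM in mutants. Uqcr10, a small subunit, stood at 40.4, 46.6 and 43.8 CPM in controls and 55.4, 48.0 and 41.9 CPM in mutants (log2 fold change 0.15 with an SE of 0.11, adjusted p = 0.596). For the 8 nuclear genes of this complex the log2 fold changes ran from -0.11 (Uqcr11) to 0.15 (Uqcr10), with a median of 0.08.

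Complex IV has subunits in tissue-specific isoform pairs. Cox4i1, the common isoform, stood at 156, 178 and 182 CPM in controls and 214, 161 and 158 CPM in mutants. Its partner Cox4i2, linked to low oxygen, stood at 29.1, 29.4 and 27.5 CPM in controls and 29.6, 25.9 and 33.6 CPM in mutants (log2 fold change 0.05). Per length, Cox4i2 was 17.4% of Cox4i1 in controls and 17.6% in mutants (SD 1.82 and 3.92, n = 3 each). The striated muscle isoforms were near the floor: Cox6a2 stood at 0.0878 to 0.618 CPM, Cox7a1 at 0.599 to 2.13 CPM and Cox8b at 0.00 to 0.243 CPM over the 6 libraries. Of 15 skeletal muscle markers, 14 were in the table and summed to 14.7 to 49.95 CPM in controls and 14.4 to 24.7 CPM in mutants. The partner genes Cox6a1, Cox7a2 and Cox8a had log2 fold changes of 0.10, 0.16 and -0.04, and the testis-type genes Cox7b2 and Cox8c were not in the table.

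Cox6b2, which encodes the testis-type isoform of a complex IV subunit, had the highest fold change of all members. It stood at 5.30, 6.93 and 5.33 CPM in controls and 17.5, 5.81 and 5.14 CPM in mutants (log2 fold change 0.70 with an SE of 0.45, adjusted p = 0.531). Mutant replicate 3 alone was high, at 3.29 times the median of the other libraries, while its partner Cox6b1 in that library was at 1.28 times that median. Per length, Cox6b2 was 9.11%, 10.8% and 8.04% of Cox6b1 in controls and 22.2%, 9.44% and 9.15% in mutants. Cox7a2l, a factor of respiratory supercomplex assembly, had the smallest p of complex IV and stood at 127, 143 and 139 CPM in controls and 128, 127 and 115 CPM in mutants (log2 fold change -0.14 with an SE of 0.08, adjusted p = 0.461).

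**Figure D5:**
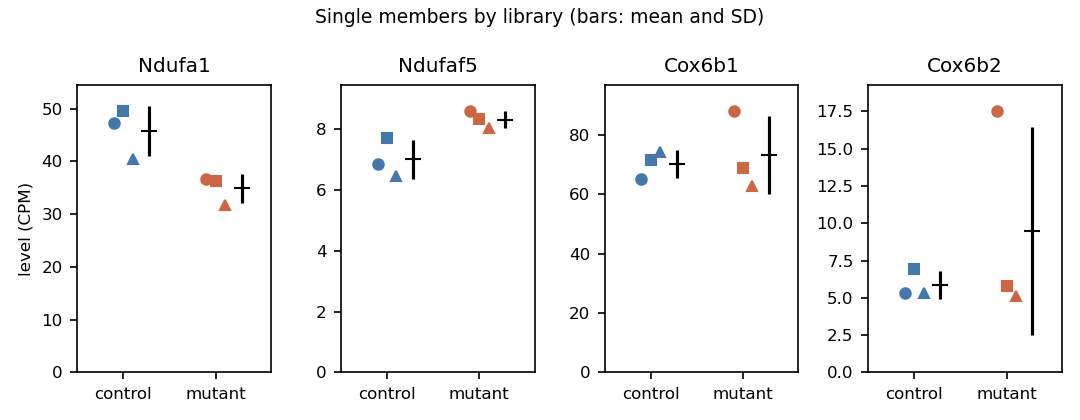
Level in CPM (y axis, starting at 0) of Ndufa1, Ndufaf5, Cox6b1 and Cox6b2 in control and mutant libraries (x axis); points are single libraries and the black bars show the mean and SD. Cox6b2 is high in 1 mutant library only, at 17.5 CPM, and the Ndufa1 groups do not overlap.

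In complex V, Atp5b stood at 540, 613 and 633 CPM in controls and 758, 585 and 515 CPM in mutants (log2 fold change 0.06, SE 0.15). Atp5g3, another subunit c gene, stood at 112, 135 and 138 CPM in controls and 181, 126 and 114 CPM in mutants (log2 fold change 0.13, SE 0.17). Mutant replicate 3 was above all controls for both, and the other mutants were not. Atp5j2 and Atp5o had the smallest p of the complex, with log2 fold changes of -0.14 and 0.11 and adjusted p values of 0.656 and 0.776, and exons of Atp5o overlap those of Donson. For the 17 genes the log2 fold changes ran from -0.14 to 0.24 with a median of 0.05. The upper end is Atp5g2 as listed, and with copies added Atp5g2 was at 0.07 and the highest gene was Atp5g3 at 0.13.

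The promoters of the nuclear members were searched for the letters of well-known sites, as a description. RefSeq (GRCm38.p6) gave windows of 300 bases, 250 before and 50 after the start, for 70 of the 88 nuclear members, 75 windows in all. An NRF1 motif, GCGCA then any base then GCGC, was present on either strand in 24.0% of them, against 4.60% of all 32851 windows. An ETS motif, CCGGAAG, was present in 21.3% against 8.86%, and a YY1 motif, AANATGGC, in 24.0% against 6.05%. At least 1 of the 3 was found in 45 of the 75 windows of members, against 17.4% of all windows. The 250 bases before the start are shown for Cox6a1 (chr5:115348959-115349208), which held NRF1 and ETS letters, for Cox6b1 (chr7:30626115-30626364), which held ETS letters, and for Cox6b2 (chr7:4753095-4753344) and Ndufa1 (chrX:37191239-37191488), the members that departed from the rest. All 4 are on the minus strand, printed 5′ to 3′ along it, with motif matches in capitals; no match says only that these letters are not in the window.
Cox6a1: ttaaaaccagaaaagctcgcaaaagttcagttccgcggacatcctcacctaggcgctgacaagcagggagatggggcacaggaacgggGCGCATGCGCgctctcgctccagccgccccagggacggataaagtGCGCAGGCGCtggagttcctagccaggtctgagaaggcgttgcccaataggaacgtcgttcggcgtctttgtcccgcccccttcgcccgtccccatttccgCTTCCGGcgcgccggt
Cox6b1: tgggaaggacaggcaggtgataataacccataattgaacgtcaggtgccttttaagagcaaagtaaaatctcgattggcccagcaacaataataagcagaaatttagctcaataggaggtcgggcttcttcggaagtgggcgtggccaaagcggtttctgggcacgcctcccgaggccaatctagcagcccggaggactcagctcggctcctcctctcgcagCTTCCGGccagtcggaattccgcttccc
Cox6b2: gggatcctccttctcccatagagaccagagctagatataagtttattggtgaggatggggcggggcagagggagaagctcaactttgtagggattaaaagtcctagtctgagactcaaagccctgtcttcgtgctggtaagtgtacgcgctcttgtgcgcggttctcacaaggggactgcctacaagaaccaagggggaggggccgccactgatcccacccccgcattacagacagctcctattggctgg
Ndufa1: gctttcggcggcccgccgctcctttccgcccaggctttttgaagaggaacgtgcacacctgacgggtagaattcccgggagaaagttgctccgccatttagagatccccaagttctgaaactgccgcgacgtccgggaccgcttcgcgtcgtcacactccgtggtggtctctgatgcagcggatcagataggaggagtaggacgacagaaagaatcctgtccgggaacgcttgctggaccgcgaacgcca

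The 13 mitochondrial genes took 3.65%, 4.46% and 4.08% of all gene counts in controls and 4.41%, 4.46% and 4.16% in mutants. These shares, before any scaling, averaged 4.07% ± 0.404 and 4.35% ± 0.162 (SD, n = 3 each). The groups overlapped. The direction turned when 3 enamel matrix genes were left out: Amelx, Ambn and Enam took 17.3%, 18.7% and 24.0% of counts in controls and 9.27%, 11.6% and 7.43% in mutants. Of the remaining counts the mitochondrial share was 4.42%, 5.49% and 5.37% in controls and 4.87%, 5.05% and 4.49% in mutants, a difference of -0.29 percentage points where the share of all counts gave 0.28. The nuclear members took 0.450%, 0.493% and 0.458% of all counts, enamel genes included, in controls and 0.653%, 0.507% and 0.496% in mutants. The higher share in mutants did not hold with TMM scaling. Their mean log2(CPM + 1) was then 5.04, 5.18 and 5.17 in controls and 5.38, 5.09 and 4.99 in mutants, and the groups overlapped. The counts of mitochondrial over nuclear members stood at 8.12, 9.05 and 8.92 in controls and 6.76, 8.80 and 8.38 in mutants, lowest in mutant replicate 3.

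The genes around the chain did not pass the test either. Of the 8 complex II genes (succinate dehydrogenase and its assembly factors, wholly nuclear), 0 were called, with a median log2 fold change of -0.02. None was called of 18 genes of the TCA cycle, which feeds the chain (median 0.06), 21 complex IV assembly genes (0.11), 11 further complex III and V and cytochrome c genes (0.00), 20 genes of mitochondrial DNA maintenance and transcription (0.01), 18 of mitochondrial RNA processing (0.05), 21 of import (0.02) and 82 mitochondrial ribosomal protein genes (0.04). The 17 nuclear regulators gave 0 calls and a median of 0.01. Among them Myc, a growth regulator, had the smallest p, at 16.4, 12.9 and 12.0 CPM in controls and 19.9, 18.0 and 19.6 CPM in mutants (log2 fold change 0.47 with an SE of 0.13, adjusted p = 0.133). In the TCA list Suclg2, a succinyl-CoA ligase subunit, stood at 33.4, 31.2 and 35.3 CPM in controls and 38.0, 43.2 and 43.9 CPM in mutants (log2 fold change 0.32 with an SE of 0.09, adjusted p = 0.122). The groups did not overlap for Myc and Suclg2, as for 21.3% of all genes. The TCA list was, like the nuclear members, highest in mutant replicate 3, by 0.27 in mean log2(CPM + 1) over the control mean, and the mitochondrial ribosomal proteins by 0.15. In that library the value was 0.18 for complex IV assembly and 0.16 for import. It was lower for complex II (0.09), RNA processing (0.06) and the regulators (0.06). For DNA maintenance and for the further complex III and V genes it was -0.01 each. By edgeR's quasi-likelihood test, the smallest adjusted p in the lists other than the regulators and the TCA cycle belonged to Mrps35 (0.177), Rexo2 (0.256), Lyrm7 (0.296), Twnk (0.340), Tomm5 (0.362), Taco1 (0.450) and Sdhb (0.556). For comparison, 176 tested genes whose symbol starts with Rpl or Rps were taken by name alone. Pseudogenes were not left out of this list, so it is not confined to cytosolic ribosomal proteins. Of these genes 0 were called, with a median of 0.02. The smallest adjusted p by the same test was 0.0775, for Rpl21-ps11, named as a pseudogene.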

How the data were processed

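RNA from 6 molar libraries was sequenced as single-end reads of 75 cycles, per the labels' protocols. The submitters' processing notes name STAR 2.6.1d, Partek and mm10, with no role or order. The count table's name points to expectation-maximisation counting. Annotation, kit and strandedness: not given in the sources used here. The authors deposited expected counts per gene (estimated counts, 53.8% of them whole within 0.001) and a normalized signal, which equals the count plus 1 times 1 factor per library and was used for 1 alternative only. All 22287 genes matched GENCODE M21 by name, chromosome and start, and ends, lengths and copies come from it.

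Expected counts were rounded and filtered with filterByExpr (17305 genes), scaled by TMM (0.872 to 1.11) and tested with edgeR 4.0.16 quasi-likelihood in R 4.3.3, adjusted by Benjamini-Hochberg over all genes, with the SE as the absolute log2 fold change over the square root of F. The biological coefficient of variation was 0.161. In simulated data for the comparison of mutants with controls (17049 genes), 20.7% of genes changed 1.5-fold, 58.8% at 2-fold and 95.2% at 4-fold were called, and 10.4% of calls were unchanged genes. Replicates of a group differed by more than counting noise (chi-square per degree of freedom 24.5 to 45.0).

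Members and lists were chosen with earlier results of these data known. Named genes were all mitochondrial members, per nuclear class the 2 with the smallest p and the 2 with the highest level per length, the isoform sets, and the smallest p of each pathway list (1 gene of this rule is not reported here); members with pseudogene copies, Ndufb11, Uqcr11, Odam and the enamel genes were named after their values were seen. Alternatives were other scalings and filters, DESeq2 1.42.0, limma 3.58.1 (voom, and on log2(signal + 1)), a replicate block, each library left out, an erythroid term and a threshold of 0.1; adding pseudogene copies and leaving out enamel genes were chosen after seeing the data.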

Additional observations from a re-analysis of the deposited data

How the results depend on the processing

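Under every alternative run, 0 of 13 mitochondrial members were called, and 0 of the nuclear members except Ndufa1 with DESeq2 (1 called, adjusted p = 0.0431). The number of genes called, 322, was 520 with library totals alone (79.0% of them higher in mutants against 35.4%), 851 with DESeq2, 9 with the erythroid level as a term, 672 at an adjusted p under 0.1, and 11 to 243 with 1 library left out, lowest without control replicate 2. Library totals alone moved the all-gene median log2 fold change from 0.01 to 0.21, that of the mitochondrial members to 0.10 and that of the nuclear members to 0.25. With the erythroid term the nuclear median was 0.23 and the difference, mitochondrial minus nuclear, was -0.33. The erythroid level, in mean log2(CPM + 1), was 5.89, 6.05 and 5.51 in controls and 5.94, 7.25 and 6.81 in mutant replicates 3, 4 and 5. Mutant replicate 3 was thus the only mutant within the control range. The cause of the shift in the medians was not tested. Leaving out 1 library gave mitochondrial medians from -0.21 to -0.05, nuclear medians from -0.10 to 0.12 and differences from -0.22 to -0.02. Without the enamel genes Amelx, Ambn and Enam the mitochondrial share differed by -0.29 and not 0.28 percentage points, since these genes took a larger share in controls. Of 44 named members, 39 changed sign in at least 1 alternative and 5 (Ndufa1, Ndufaf2, Ndufaf5, Ndufb1-ps and Uqcr10) kept it. Outside the members, Suclg2 was called with library totals alone (adjusted p = 0.0386). 

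Controls and mutants share only the numbers 3 and 5, which gives 2 pairs, and their deviations correlated at 0.18 and -0.16; nothing shows that the numbers pair the samples. With the replicate block, which leaves 1 residual degree of freedom, 90 genes were called, 0 of them members, and the medians were -0.25 for mitochondrial and 0.01 for nuclear members, a difference of -0.25. With 3 libraries a group, changes near 1.5-fold were often missed in the simulations, and members at or below a few CPM (Cox6a2, Cox7a1, Atp5g2 as listed) have wide intervals.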

Other observations

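The mitochondrial rRNAs, which are transcribed from the same DNA as the mitochondrial mRNAs and are not members, had positive fold changes with TMM scaling. Under it 12 of the 13 mitochondrial members were negative. With library totals alone the median of these 13 members was positive too, at 0.10, but below that of all genes, at 0.21. Values of the rRNAs under that scaling are not given here. mt-Rnr1, the small subunit rRNA, stood at 376, 285 and 358 CPM in controls and 360, 595 and 466 CPM in mutants (log2 fold change 0.48 with an SE of 0.19, adjusted p = 0.271 by edgeR's quasi-likelihood test). mt-Rnr2, the large subunit rRNA, stood at 765, 716 and 1129 CPM in controls and 870, 1621 and 1121 CPM in mutants (log2 fold change 0.47 with an SE of 0.25, adjusted p = 0.439). Mutant replicate 4 was the highest library for both, and it was also the highest for the erythroid markers, whose mean log2(CPM + 1) exceeded the control mean by 0.13, 1.44 and 0.99 in mutant replicates 3, 4 and 5. Whether these are linked was not tested. The library kit is not given, so how much rRNA the preparation removed, and whether equally in each library, is not known. The listed rRNA levels may therefore not reflect those in the tissue.

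Of 9 pairs of genes with related products, the groups did not overlap for 2, named here after their values were seen, and overlapped for 7; among single genes 21.3% did not overlap. Atp5g1 relative to Atp5g3 per length was 6.02%, 5.90% and 5.66% in controls and 5.13%, 5.29% and 4.93% in mutants. Cox7a2l relative to Cox7a2 was 206%, 212% and 201% in controls and 141%, 188% and 184% in mutants. Pseudogene copies held 60.03% of the summed counts of Atp5g1 and 22.4% of those of Cox7a2l. With copies added, Cox7a2l relative to Cox7a2 was 271%, 284% and 239% in controls and 170.0%, 249.7% and 250.1% in mutants, and the groups overlapped. The ratio of Atp5g1 to Atp5g3 was then 15.1%, 14.2% and 14.2% in controls and 13.1%, 12.5% and 13.2% in mutants, still with no overlap. Lyrm7, a complex III assembly factor outside the member rule, stood at 4.47, 5.52 and 5.39 CPM in controls and 1.43, 2.26 and 4.48 CPM in mutants (log2 fold change -0.92 with an SE of 0.37, adjusted p = 0.296). Mutant replicate 5 overlapped the controls for this gene, and the other mutants were below all of them.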
